A study of Caenorhabditis elegans with 6 samples.

Results

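Glutathione S-transferases join the tripeptide glutathione to reactive, electron-poor compounds, a central step of the second phase of detoxification, and some members also act as peroxidases, isomerases or thiol transferases. In *C. elegans* the family is large, has members expressed in intestine and epidermis, and includes *gst-4*, the standard reporter of the oxidative stress factor SKN-1. The genes described here are all those whose name in the deposited annotation is *gst*, *gsto* or *gstk* followed by a number, which gave 49 of 20362 protein-coding genes. Of these, 44 are *gst* genes, 3 are omega-class *gsto* genes and 2 are kappa-class *gstk* genes. The name fixed the choice and no measured value entered it.

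RNA of whole nematodes was measured in 3 libraries of *grh-1* OEx and 3 of wild-type N2 (WT), the Bristol strain. The *grh-1* OEx strain (line 1 of the study, 1 integrated line) carries *grh-1*, the gene of a Grainyhead-type transcription factor, fused to *gfp* under the heat shock promoter of *hsp-16.2*. It was made by bombardment of *unc-119* mutant nematodes and then backcrossed to N2. Nematodes of both groups were kept at 20 °C on *E. coli* OP50, were sampled 48 h post-development and were not heat shocked, so that expression from the construct rests on the uninduced promoter. The comparison asked which genes GRH-1 regulates, and by the study's methods the 3 RNA samples of a group were biologically independent.

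The libraries held between 14409044 and 25535026 raw counts, of which 0.0861% to 0.120% fell on the 49 genes. *grh-1* itself stood at 7.96 ± 1.61 CPM in *grh-1* OEx and 5.60 ± 0.589 CPM in WT (SD, n = 3 each, CPM being library-scaled counts after TMM normalization), with all 3 *grh-1* OEx values above all WT values and a log2 difference of 0.51 (unadjusted p = 0.0365, adjusted p = 0.709, edgeR). *unc-119*, the gene mutated in the bombarded strain, stood at 75.2 ± 2.41 CPM in *grh-1* OEx and 20.1 ± 1.59 CPM in WT (SD, n = 3 each, log2 fold change 1.91, adjusted p = 6.2e-05, edgeR). WT replicate 3 stood apart from the other 5 libraries on the first principal component (52.0% of the variance). Its summed level of 15 sperm markers was 169 CPM, against 16.7 to 33.8 CPM in the others, and its 12 oocyte and germline markers also summed to the highest value. The 9 intestinal markers, all of them detected, summed to 1905 to 2043 CPM in *grh-1* OEx and 2315 to 2931 CPM in WT. The protease gene *asp-1* alone had 1077 ± 30.9 CPM in *grh-1* OEx and 1551 ± 239.9 CPM in WT (SD, n = 3 each). It was the most abundant of the markers, so that the sums mostly follow this gene and do not describe the markers as a set. No intestinal marker passed the test in edgeR, and the median log2 fold change over the 9 was -0.13. At an unadjusted p under 0.05, 2 were lower (*asp-1* and *mtl-2*), against 4.44% of all tested genes. For *asp-1* (-0.53), *mtl-2* (-0.55) and *act-5* (-0.35), all *grh-1* OEx values were below all WT values. Such a separation was found in 6.14% of all tested genes, and the groups overlapped for the other intestinal markers. Values were positive for *ifb-2* (0.27), *elt-2* (0.16), *ges-1* (0.09) and *vha-6* (0.09), and negative for the other intestinal markers. Of 9 epidermal markers 0 passed, and values ran from -0.07 (*elt-1*) to 0.73 (*wrt-2*) with a median of 0.21. At an unadjusted p under 0.05, 1 of them was higher (*wrt-2*, with overlapping groups), against 2.18% of all tested genes. In whole nematodes, the number of cells of a tissue and the RNA per cell cannot be told apart. Whether either differed, and its part in the results below, was not tested.

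*gst-7* and *gst-1*, a pi-class transferase by its annotation, were the most abundant transferase transcripts in every library. Levels between genes are compared in TPM, computed from counts and the deposited gene widths. *gst-7* had 397, 370 and 473 TPM in *grh-1* OEx replicates 1 to 3, against 463, 408 and 380 TPM in WT replicates 1 to 3. *gst-1* had 387, 367 and 461 TPM in *grh-1* OEx, against 423, 372 and 364 TPM in WT. The levels of both genes overlapped between the groups. Within a library *gst-7* was above *gst-1* in 6 of 6, with a ratio of 1.01 to 1.03 in *grh-1* OEx and 1.04 to 1.09 in WT. These ratios did not overlap between the groups, but the nearest, 1.026 and 1.042, were close. The separation was seen after the fact and was not tested. With 3 libraries per group, an exact permutation test cannot give a p under 0.1. Together they made up 45.9% to 50.9% of the summed TPM of the 49 genes in *grh-1* OEx and 47.7% to 52.9% in WT.

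**Figure D1:**
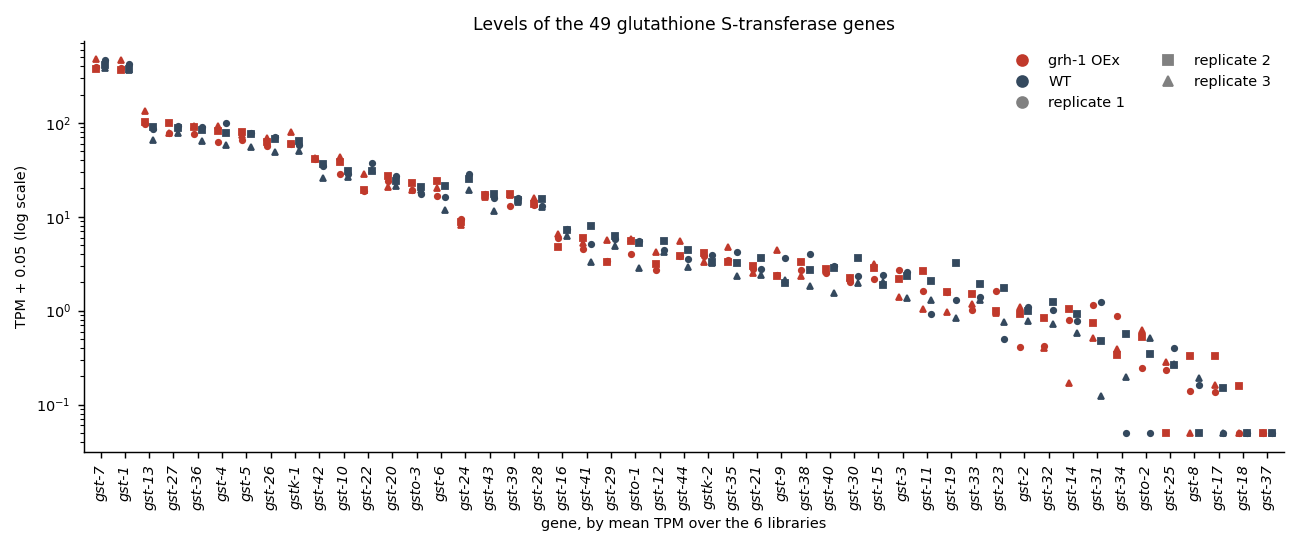
TPM plus 0.05 on a log scale for each of the 49 genes (x axis, ordered by mean TPM) in each library, with *grh-1* OEx in red to the left of WT in dark blue and 1 symbol per replicate number. *gst-7* and *gst-1* stand above all others, and the red and blue points of *gst-24*, in the middle of the order, are apart.

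A second tier of 7 genes lay between 61.8 and 95.5 TPM on average over the 6 libraries. In descending order these were *gst-13*, *gst-27*, *gst-36*, *gst-4*, *gst-5*, *gst-26* and *gstk-1*. Within libraries, *gst-5* was above *gst-26* in 6 of 6, by 5.6 to 16.7 TPM, while the order of every other pair of neighbors among these 7 genes was the other way round in at least 1 library. The 9 genes of both tiers held 82.6% of the summed mean TPM. A further 10 genes averaged 10 to 50 TPM, among them *gst-42* (36.9 TPM), which is annotated as the maleylacetoacetate isomerase of tyrosine breakdown, and *gst-10* (32.7 TPM), known in nematodes for conjugating the lipid peroxidation product 4-hydroxynonenal. Of the remaining genes, 19 averaged 1 to 10 TPM and 11 averaged 1 TPM or less.

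The filter on low counts removed 12 of the 49 genes, namely *gst-2*, *gst-8*, *gst-14*, *gst-17*, *gst-18*, *gst-23*, *gst-25*, *gst-31*, *gst-32*, *gst-34*, *gst-37* and *gsto-2*. None of them had more than 18 counts in any library. *gst-37* had 0 counts in all 6 libraries, which allows up to 0.188 CPM in *grh-1* OEx and 0.203 CPM in WT in the shallowest library of each (3 counts, counting error only). These 12 genes are not among those tested below.

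The summed TPM of the family overlapped between the groups. It was 1539, 1604 and 1850 TPM in *grh-1* OEx, against 1764, 1636 and 1407 TPM in WT, or 1664 ± 164 and 1602 ± 181 TPM (SD, n = 3 each, two-sided exact permutation test, p = 0.8, where the smallest p possible is 0.1). Libraries differed within groups in the same range. WT replicate 1 held the highest CPM of 17 of the 37 tested genes and *grh-1* OEx replicate 3 that of 11, while *grh-1* OEx replicate 1 and WT replicate 3 each held the lowest of 11.

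*gst-24* was the only transferase gene past the threshold in the comparison of *grh-1* OEx with WT, and its fitted level in *grh-1* OEx was 0.331 times that in WT. *gst-24* (WBGene00001772) is annotated as a glutathione S-transferase and lies on the minus strand of chromosome II of WBcel235, from 13610443 to 13611342, with 2 exons in the Ensembl annotation and no overlapping gene. Its raw counts were 113, 98 and 76 in *grh-1* OEx replicates 1 to 3, against 269, 264 and 289 in WT replicates 1 to 3. In CPM these were 5.44, 4.999 and 4.77 in *grh-1* OEx, against 18.2, 14.43 and 13.4 in WT. Each *grh-1* OEx library was far below each WT library, and the 3 *grh-1* OEx values lay close together. The log2 fold change was -1.59 (standard error 0.18, 95% interval -1.999 to -1.19, unadjusted p = 6.04e-06, adjusted p = 0.00499 by the quasi-likelihood test of edgeR over 13736 genes). *gst-24* had the 16th lowest p of all genes tested. Its share of the summed TPM of the family was 0.530% in *grh-1* OEx and 1.52% in WT. It passed in 11 of 13 alternative settings, and without *grh-1* OEx replicate 1 or replicate 2 its adjusted p was 0.0756 and 0.0771 at log2 fold changes of -1.65 and -1.58. In the fit without WT replicate 3 it passed, at a log2 fold change of -1.68.

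Across all tested genes 0.298% were called lower and 0.146% were called higher, and of the 37 tested transferase genes 1 was called lower and 0 were called higher. At an unadjusted p under 0.05, 3 of the 37 were lower (*gst-24*, *gst-22* and *gst-12*) and 1 was higher (*gst-13*), against 4.44% and 2.18% of all tested genes. Of the 3 lower genes, *gst-24* and *gst-22* had such a p in all 13 alternative settings and *gst-12* in 4 of 13. DESeq2 and limma-voom likewise called 1 lower and 0 higher. The median log2 fold change over the 37 was -0.05 (-0.02 with RLE factors, -0.06 with upper-quartile factors and 0.01 over the 48 genes kept without a filter), with quartiles of -0.14 and 0.10, beside a median of -0.01 with quartiles of -0.14 and 0.11 over all tested genes. Negative values were found for 23 of the 37, and for 52.4% of all genes. For 28 of the 37 the 95% interval lay within a 2-fold change in either direction, as it did for 80.3% of all genes.

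**Figure D2:**
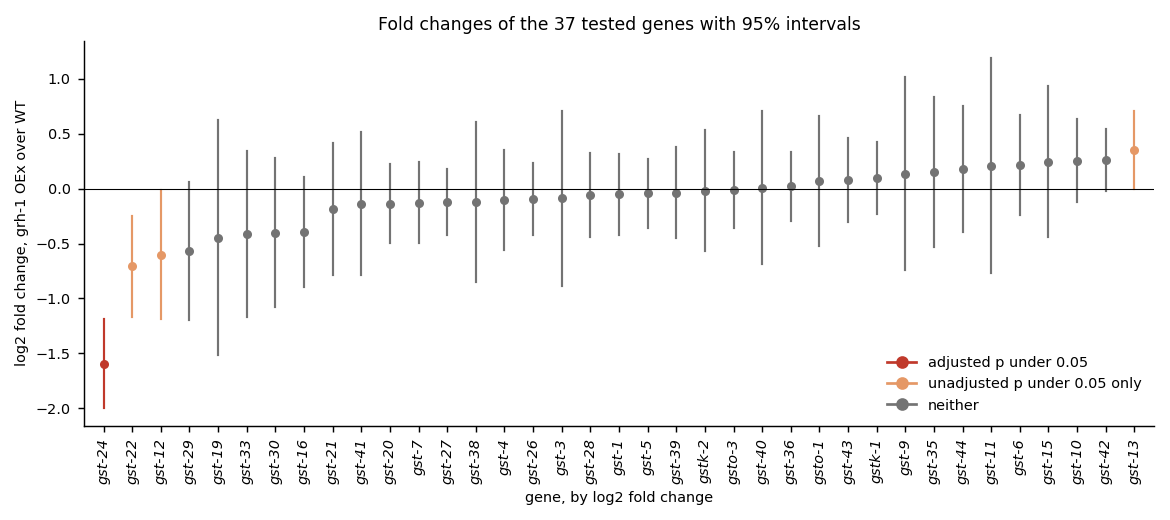
Log2 fold change of *grh-1* OEx over WT for the 37 tested genes (points) with 95% intervals from edgeR (lines), ordered by value. *gst-24* at -1.59 is apart from the others, which run from -0.71 for *gst-22* to 0.35 for *gst-13*.

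*gst-22* had the next lowest p. It had 10.8, 11.1 and 17.1 CPM in *grh-1* OEx, against 24.1, 17.6 and 21.7 CPM in WT, so that the groups did not overlap, although *grh-1* OEx replicate 3 came close to WT replicate 2. Its log2 fold change was -0.71 with a standard error of 0.21, and it did not pass over all genes (unadjusted p = 0.00682, adjusted p = 0.369, edgeR). The gene lies on chromosome V from 16231034 to 16232282 and overlaps *F21H7.12*. The library kit does not mark strand, so that reads from the shared stretch cannot be told apart. How much of *gst-22* that stretch covers was not measured.

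*gst-12* stood at 1.59, 1.84 and 2.51 CPM in *grh-1* OEx, against 2.84, 3.17 and 2.97 CPM in WT, from 33 to 64 counts per library. The groups were separated. Its log2 fold change was -0.60 with a standard error of 0.26 (adjusted p = 0.738, edgeR). In all, 6 of the 37 genes had all *grh-1* OEx values below all WT values, against 6.14% of all tested genes. Besides these 3 they were *gst-16* (-0.39), *gst-30* (-0.40) and *gst-33* (-0.42), none of which passed (unadjusted p of 0.112, 0.217 and 0.247, edgeR).

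*gst-13* was the highest-ranking gene in the other direction. It had 57.6, 60.2 and 81.3 CPM in *grh-1* OEx, against 56.1, 52.6 and 47.0 CPM in WT. The groups were separated by little, and *grh-1* OEx replicate 3 was well above the other libraries. The log2 fold change was 0.35 (standard error 0.16, unadjusted p = 0.0493, adjusted p = 0.751, edgeR), and the unadjusted p was above 0.05 in 6 of 13 alternative settings. *gst-42* was the only other gene with every *grh-1* OEx library above every WT library, at 32.0, 31.9 and 34.2 CPM against 29.9, 28.0 and 24.2 CPM (log2 fold change 0.26, unadjusted p = 0.0669, edgeR). Such a separation was found in 3.39% of all tested genes.

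**Figure D3:**
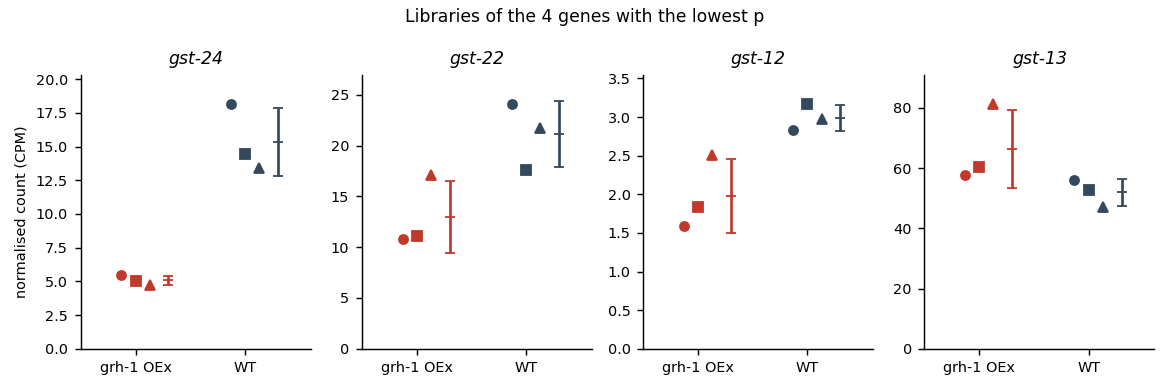
Normalised counts in CPM of the 4 transferase genes with an unadjusted p under 0.05, per library, with *grh-1* OEx in red to the left of WT in dark blue (circle, square and triangle for replicates 1, 2 and 3, bars for mean ± SD). The *gst-24* values of *grh-1* OEx, 4.77 to 5.44 CPM, are well below those of WT, while the gap is small for *gst-13*.

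*gst-13* was also the only transferase gene for which the study's table of predicted GRH-1 sites lists matches. They are shown because GRH-1 is the factor overexpressed here, with capitals marking the whole matched site:
plus strand, chrII:9229300-9229307: TCCGGTTT
minus strand, chrII:9229670-9229677: TCCGGTTT
Both were found by FIMO only, and the study went on only with sites that a second program also found, so that it did not retain these matches. They are given on WBcel235 and lie 2197 and 1827 bases before the annotated start of *gst-13* at 9231497, outside every transcript of the Ensembl annotation. Positions were counted from the first base of the listed window and were not checked against the genome sequence. The scan covered only genes that the study had listed from these same libraries. Its results text names the genes increased in *grh-1* OEx, while its methods name all differentially expressed genes. A match for a gene with higher values thus partly follows from the choice of genes scanned. The share of all transferase genes with such a site, *gst-24* included, is not known here.

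Chromosome II holds 26 of the 49 genes. With a gap of at most 20 kb between neighbors, 25 genes fall into 4 runs. Of these, 3 are on chromosome II, with 4, 9 and 9 genes, and 1 on chromosome IV holds *gst-3*, *gst-2* and *gst-4*. Genes within a run had unlike levels. In the first, *gst-7* averaged 415 TPM and its neighbor *gst-8*, which starts at 4883749, averaged 0.104 TPM.

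*gst-24* lies in the second of these runs, between *gst-20* and *gst-15*, in a stretch of 22.7 kb from 13608185 to 13630887 with all 9 genes on the minus strand. The groups overlapped for both flanking genes. *gst-20* had 14.2, 16.1 and 12.6 CPM in *grh-1* OEx, against 17.9, 14.1 and 15.2 CPM in WT (log2 fold change -0.14, 95% interval -0.49 to 0.22). *gst-15* had 1.203, 1.58 and 1.82 CPM in *grh-1* OEx, against 1.49, 1.04 and 1.35 CPM in WT (0.25, 95% interval -0.44 to 0.94). The 95% interval of *gst-24* does not reach that of either. The ratio of *gst-24* to *gst-20* within a library was 0.382, 0.311 and 0.378 in *grh-1* OEx, against 1.02, 1.02 and 0.881 in WT, given with no test because *gst-24* was singled out for its separated groups. Of the 6 tested genes of the run, 5 had negative values. Besides *gst-24*, *gst-12* and *gst-16* of this run had all *grh-1* OEx values below all WT values, a separation found in 6.14% of all tested genes. Within 50 kb of the start of *gst-24*, 0 of 19 other tested genes passed the threshold in edgeR, and log2 fold changes ran from -0.66 to 0.25. At an unadjusted p under 0.05, 2 of them were lower (*gst-12* and *C31C9.2*), against 4.44% of all tested genes. Reads that match several near-identical copies of a run can be split or lost in counting, which was not measured here.

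**Figure D4:**
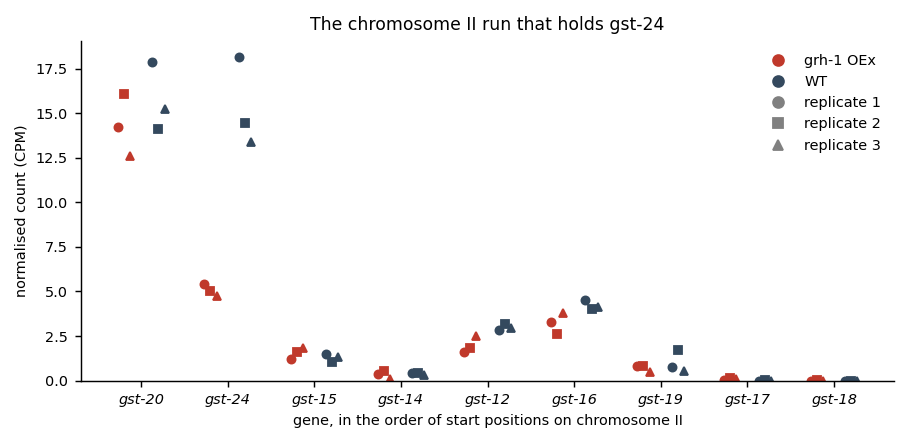
Normalised counts in CPM of the 9 genes of the chromosome II run, in the order of their start positions, per library (*grh-1* OEx red and left, WT dark blue and right, symbols for replicates). *gst-24* is apart between the groups, whereas the groups overlap for its neighbors *gst-20* and *gst-15*. The groups of *gst-12* and *gst-16* are also apart, by smaller gaps.

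The transferases best known as SKN-1 targets showed no change past the test. *gst-4* had 40.1, 52.4 and 61.5 CPM in *grh-1* OEx, against 70.4, 49.9 and 45.1 CPM in WT. Its highest and its lowest value were both replicate 1, of WT and of *grh-1* OEx, and the log2 fold change was -0.10 (standard error 0.20, 95% interval -0.55 to 0.35, adjusted p = 1.00, edgeR). *gst-10* had 18.1, 24.3 and 28.0 CPM in *grh-1* OEx, against 19.8, 18.97 and 20.2 CPM in WT (0.25, 95% interval -0.12 to 0.63). *gst-30* and *gst-38*, which are also induced through SKN-1, stayed below 3 CPM in every library. Their log2 fold changes had wide intervals at this depth, from -1.08 to 0.28 for *gst-30* and from -0.85 to 0.61 for *gst-38*.

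For the most abundant genes a change of 2-fold lay outside the 95% interval. *gst-1* had a log2 fold change of -0.05 (95% interval -0.42 to 0.32) and *gst-7* one of -0.13 (-0.50 to 0.24). *gst-27*, *gst-36*, *gst-5* and *gst-26* had values of -0.12, 0.02, -0.04 and -0.10, with adjusted p of 1.00 each in edgeR. Several of the genes described overlap another gene, and the library kit does not mark strand, so that part of their reads may belong to it. In the deposited coordinates *gst-5* overlaps *nos-1*, *gst-36* overlaps *scav-5* and *gsto-1* overlaps *kle-2*. In the Ensembl annotation *gstk-2* also overlaps *elo-3*, and *gst-4* overlaps *dhs-12*, which lies on the same strand, so that strand would not separate their reads. Of the smaller classes, *gstk-1*, a kappa-class gene, had 35.7, 35.5 and 48.6 CPM in *grh-1* OEx, against 37.9, 37.8 and 36.0 CPM in WT (0.10, 95% interval -0.23 to 0.43), and *gstk-2* stayed between 2.13 and 2.77 CPM in all libraries (-0.02, 95% interval -0.56 to 0.53). The omega-class genes *gsto-3* and *gsto-1*, of a class known for thiol transfer, had values of -0.01 (95% interval -0.36 to 0.33) and 0.07 (-0.52 to 0.66). *gst-6*, which lies beside *gst-7*, had a value of 0.22 (-0.24 to 0.67). *gst-43*, which ranged from 7.57 to 9.59 CPM, had a value of 0.08 (-0.30 to 0.46).

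Among the genes that make and recycle glutathione, a glutaredoxin gene was higher in *grh-1* OEx. Of 19 tested genes of glutathione synthesis and redox, 1 rose, 0 fell and the median log2 fold change was 0.03. Over all tested genes, 0.146% rose and 0.298% fell. *gcs-1*, the rate-limiting enzyme of glutathione synthesis and a SKN-1 target, had 111, 104.01 and 83.1 CPM in *grh-1* OEx, against 84.3, 82.8 and 114 CPM in WT (0.08, 95% interval -0.30 to 0.46). *gss-1*, the glutathione synthetase, had a value of 0.03 (-0.26 to 0.33), and *gsr-1*, the glutathione reductase, one of -0.27 (-0.73 to 0.19). *glrx-10* had a value of -0.30 (unadjusted p = 0.0713, edgeR). All its *grh-1* OEx values were below all WT values, as for 6.14% of all tested genes. The gene that rose was *glrx-22*, a glutaredoxin gene, with 65.2, 62.1 and 87.6 CPM in *grh-1* OEx, against 38.6, 39.5 and 32.7 CPM in WT (0.96, standard error 0.16, adjusted p = 0.0374, edgeR). It passed in 8 of 13 alternative settings, and its adjusted p was 0.15 with the replicate block, 0.154 without WT replicate 2, and 0.209, 0.116 and 0.111 without *grh-1* OEx replicates 1, 2 and 3. *glrx-22* starts at 8200602 on chromosome IV, near *pmk-1*, which starts at 8148794 and is the gene called in the next list. The genes called in these lists thus lie close together. Also near is *gpx-6*, a glutathione peroxidase gene that starts at 8222210. It had 3.00 ± 0.431 CPM in *grh-1* OEx and 1.73 ± 0.816 CPM in WT (SD, n = 3 each, 0.80, unadjusted p = 0.0468, edgeR).

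Of a list of 14 genes, made up of *skn-1* and genes listed for SKN-1 regulation, 1 rose and 0 fell. Over all tested genes, 0.146% rose and 0.298% fell. The gene that rose was *pmk-1*, a p38 kinase gene whose product phosphorylates SKN-1 (1.03, standard error 0.14, adjusted p = 0.0119, edgeR). It passed in 10 of 13 alternative settings, and its adjusted p was 0.0752 without WT replicate 2, 0.149 without *grh-1* OEx replicate 1 and 0.105 without *grh-1* OEx replicate 2. *skn-1* itself had 265, 271 and 223 CPM in *grh-1* OEx, against 213, 215 and 349 CPM in WT (-0.03, 95% interval -0.51 to 0.44), its highest value being in WT replicate 3. *wdr-23*, which marks SKN-1 for degradation, had a value of -0.13 (-0.45 to 0.20) and *xrep-4*, which also acts on SKN-1, one of 0.01 (-0.28 to 0.29). At an unadjusted p under 0.05, 1 gene of this list was lower, against 4.44% of all tested genes. This was *sgk-1*, a kinase gene. It had 21.2 ± 1.51 CPM in *grh-1* OEx and 26.96 ± 2.47 CPM in WT (SD, n = 3 each, -0.34, unadjusted p = 0.0258, adjusted p = 0.666, edgeR). Its groups did not overlap, as for 6.14% of all tested genes in that direction. Of 6 SKN-1 targets outside the family, 0 passed in edgeR, and the median was 0.04. At an unadjusted p under 0.05, 1 was lower, against 4.44% of all tested genes. This was *nit-1*, a nitrilase gene (-0.51, unadjusted p = 0.0144, edgeR). *ugt-11* went the other way (0.44, unadjusted p = 0.0538, edgeR). All *grh-1* OEx values were below WT for *nit-1* and above WT for *ugt-11*, as for 6.14% and 3.39% of all tested genes.

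**Figure D5:**
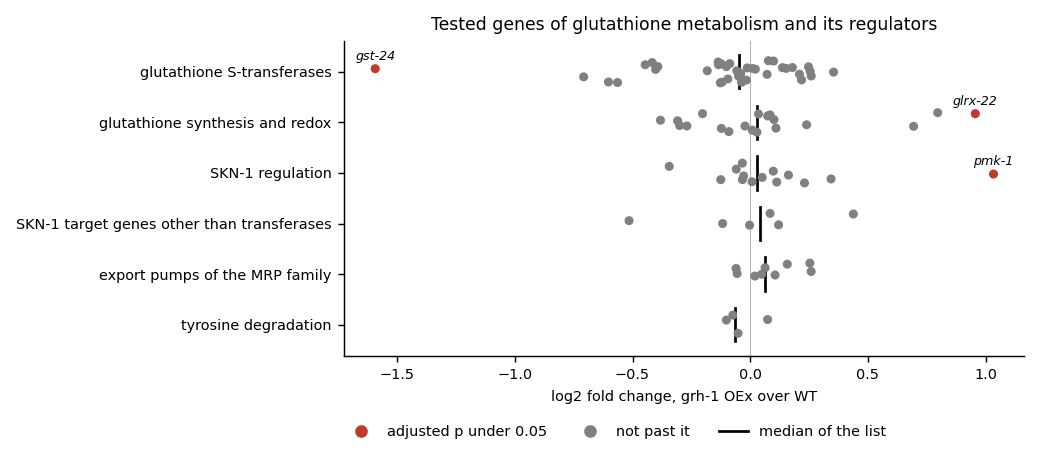
Log2 fold change of *grh-1* OEx over WT (x axis) for each tested gene of the transferase family and of 5 lists of partner genes (rows), with the median of each list as a black bar and genes at an adjusted p under 0.05 in red. *gst-24* at -1.59, *glrx-22* at 0.96 and *pmk-1* at 1.03 are the 3 genes in red. *glrx-22* and *pmk-1* lie near each other on chromosome IV.

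The export pumps and the enzymes of tyrosine degradation had no gene past the threshold in edgeR. Other steps before and after the transferases are not covered here. Over all tested genes, 2.18% were higher and 4.44% lower at an unadjusted p under 0.05. Among 9 pumps of the MRP family, which export glutathione conjugates, log2 fold changes ran from -0.06 to 0.26 (*mrp-1*), with 0 at an unadjusted p under 0.05. Among 4 enzymes of tyrosine degradation, the pathway of *gst-42*, they ran from -0.10 (*tatn-1*) to 0.07 (*hgo-1*), also with 0 at an unadjusted p under 0.05.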

How the data were processed

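Poly(A) RNA of whole nematodes was sequenced in 3 *grh-1* OEx and 3 WT libraries. The authors trimmed reads for adapters and quality, aligned them to WBcel235 with STAR and counted them per gene with featureCounts (versions not given in the sources used here), and the deposited raw counts were used as they stand. Of the deposited tables, 12 per-sample columns (normalized counts and FPKM) were not used, and the authors' own fold changes and p-values were neither used nor printed. Library totals ranged from 14409044 to 25535026 counts, which sets the precision of low genes.

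Genes were kept with edgeR's filterByExpr (minimum count 10, minimum total 15), scaled by TMM and tested with the quasi-likelihood test of edgeR 4.0.16 in R 4.3.3, with Benjamini-Hochberg adjustment over 13736 genes and a threshold of 0.05. Intervals are 95% intervals. The procedure was tested on simulated data. TPM was computed from the counts and the deposited gene widths. As alternatives, DESeq2 1.42.0 and voom of limma 3.58.1 replaced the test, upper-quartile or RLE factors replaced TMM, the filter was dropped or required 10 counts in all libraries, a replicate block was added, and each library was left out in turn. By rule, the text names members at an adjusted or unadjusted p under 0.05, the 8 with the highest mean TPM, the 3 tested members with the largest log2 fold change in each direction, 19 members of known or presumed role, *grh-1*, and from each other list the genes past the threshold, up to 3 with the lowest p and 6 genes of SKN-1 control and glutathione synthesis. Other genes given with values (*gst-15*, *gst-16*, *gst-20*, *gst-33*, *C31C9.2* and *asp-1* among them) were chosen after their values were seen. The family and the lists were chosen with earlier results of these data known.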

Additional observations from a re-analysis of the deposited data

How the results depend on the processing

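*gst-24* was the only transferase gene called in any setting, and none was called higher in any. Under each left-out library, 0 to 1 genes were called lower, with 0 without *grh-1* OEx replicate 1 and without *grh-1* OEx replicate 2, where the calls over all genes were also few (12 and 10 lower). The number of transferase genes higher at an unadjusted p under 0.05 was 0 with upper-quartile factors, with limma-voom and with the replicate block, and 0 to 2 when a library was left out. The number lower at that p, 3, ran from 2 to 4 over all alternatives. The added gene was *gst-29*, which had such a p in 3 of 13 (main fit -0.56, unadjusted p = 0.0733, edgeR, with overlapping groups). Correlations of same-numbered libraries, as deviations from the group mean, were 0.16, -0.04 and -0.16. Those of differently numbered libraries ran from -0.36 to 0.31, so that these correlations cannot show whether the replicate numbers pair the samples. With the replicate block 1 transferase gene was called lower, beside 10 genes higher and 42 lower over all genes. Over all genes the calls, 20 higher and 41 lower, were 60 and 89 in DESeq2, and 32 and 212 without WT replicate 1. The median log2 fold change of the transferases, -0.05, was 0.01 with no filter and ran from -0.13 without WT replicate 3 to 0.064 without WT replicate 1. Of 26 named tested genes, 13 changed sign in some setting, all at an adjusted p of at least 0.97. With no filter, *gst-1* was at 0.0034, *gst-5* at 0.0046, *gstk-2* at 0.030 and *gsto-3* at 0.036. *gstk-2* and *gsto-3* were at 0.0071 and 0.0096 in DESeq2 and at 0.0058 and 0.010 with RLE factors. With 1 library left out, log2 fold changes ran from -0.15 to 0.076 for *gst-1*, -0.23 to 0.16 for *gst-4*, -0.13 to 0.10 for *gst-5*, -0.23 to 0.011 for *gst-7*, -0.22 to 0.012 for *gst-20*, -0.19 to 0.064 for *gst-26*, -0.059 to 0.17 for *gst-36*, -0.31 to 0.26 for *gst-38*, -0.029 to 0.18 for *gst-43*, -0.042 to 0.18 for *gstk-1*, -0.081 to 0.12 for *gstk-2*, -0.14 to 0.30 for *gsto-1* and -0.090 to 0.066 for *gsto-3*. The cause of these changes was not tested. Depth limits the genes under about 3 CPM, whose intervals are wide. Of the 12 genes below the filter, all but *gst-37* entered the fit without a filter, and none was called there.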

Other observations

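The names used to choose the family and the functional annotation do not coincide. Of the 49 genes, 22 carry the Gene Ontology term for glutathione transferase activity and 27 carry only the general term for transferases. In turn, 3 genes outside the names carry the specific term. *eef-1G*, a subunit of the translation elongation factor, had 1922 ± 240.3 CPM in *grh-1* OEx and 1840.0 ± 663 CPM in WT (SD, n = 3 each), with a log2 fold change of 0.06. *C02D5.4* and *Y53G8B.1* had log2 fold changes of -0.04 and -0.21. None of these 3 passed the test in edgeR (adjusted p = 1.00 each), and the groups overlapped for each of them.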
